A study of Mus musculus with 25 samples.

Results

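The TRIM (tripartite motif) genes of the mouse were examined for GATA1 and TAL1 binding in cultured erythroid progenitor cells. Members were the genes annotated as protein-coding on mm9 by GENCODE vM1 whose symbol begins with Trim followed by a number, which gave 67 of the 22208 protein-coding genes on the 20 chromosomes that the location lists cover. No measured value entered this rule, although it was chosen with earlier results of these data known. A TRIM protein carries a RING finger, B-box zinc fingers and a coiled coil, and most members act as E3 ubiquitin ligases that mark other proteins for degradation or for signaling, while the C-terminal part of the protein selects the target. Many members act in antiviral signaling. Trim58 and Trim10 are known from red cell formation: Trim58 is a late erythroid ligase that directs the degradation of the dynein motor, and Trim10, also named HERF1, is needed for terminal erythroid differentiation of cultured cells. GATA1 is the zinc finger factor that drives erythroid genes, and TAL1 is a basic helix-loop-helix factor that joins GATA1 in a complex on DNA.

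Binding was measured by ChIP-exo, in which an exonuclease trims the immunoprecipitated DNA up to the point where the protein is cross-linked, so that each position is known to within a few bases. G1E cells are a mouse line of strain 129 that lacks GATA1, and G1E-ER4 is a line derived from it in which GATA1 was restored as a fusion with the estrogen receptor that becomes active when estradiol is added. The labels gave 10 GATA1 libraries, 1 from G1E cells and 3 each from G1E-ER4 cells at 0, 3 and 24 h, and 15 TAL1 libraries, 4 from G1E cells and 5, 3 and 3 from G1E-ER4 cells at 0, 3 and 24 h, where the 3 and 24 h cells had received 10 nM beta-estradiol. There are 3 lists per factor: peak pairs, MultiGPS locations and final locations. Final locations are the MultiGPS locations with a peak pair within 100 bp. The authors merged replicates, took the union of peak pairs found at any time, and ran MultiGPS across the times together. An entry may thus come from a single time, or for TAL1 from G1E cells, which lack GATA1. Entries of both factors at a site need not come from the same time or the same cells. The lists give a position on mm9 for each entry and carry no tag count, score or replicate, so depth, the spread between replicates and any change with time cannot be given, and all comparisons here are descriptions with no test.

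A final GATA1 location lay in or within 10 kb of 16 of the 67 TRIM genes (23.9%, 95% exact binomial interval 14.3 to 35.9), beside 23.9% of all genes. A final TAL1 location did so at 19 members (28.4%, 18.0 to 40.7), beside 21.3% of all genes. The intervals cover counting error only and take members as independent, although 24 members have a window that overlaps another member's. Both contain the value over all genes. By the share of genes bound, the family as a whole was therefore near the background for both factors. Per Mb of these windows, overlaps counted once, the TRIM genes held more locations, 11.5 for GATA1 and 14.2 for TAL1, beside 6.42 and 9.1 in the windows of all genes. That density depends on gene length, which was not matched here. The mean number per gene was closer: 0.522 for GATA1 and 0.776 for TAL1 at TRIM genes, beside 0.468 and 0.662 over all genes. What follows concerns which members were bound, where, and on what sequence. The plot of locations per gene shows that Trim25, Trim10 and Trim15 had the most TAL1 locations, and Trim25, Trim41 and Trim44 the most GATA1 locations.

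**Figure D1:**
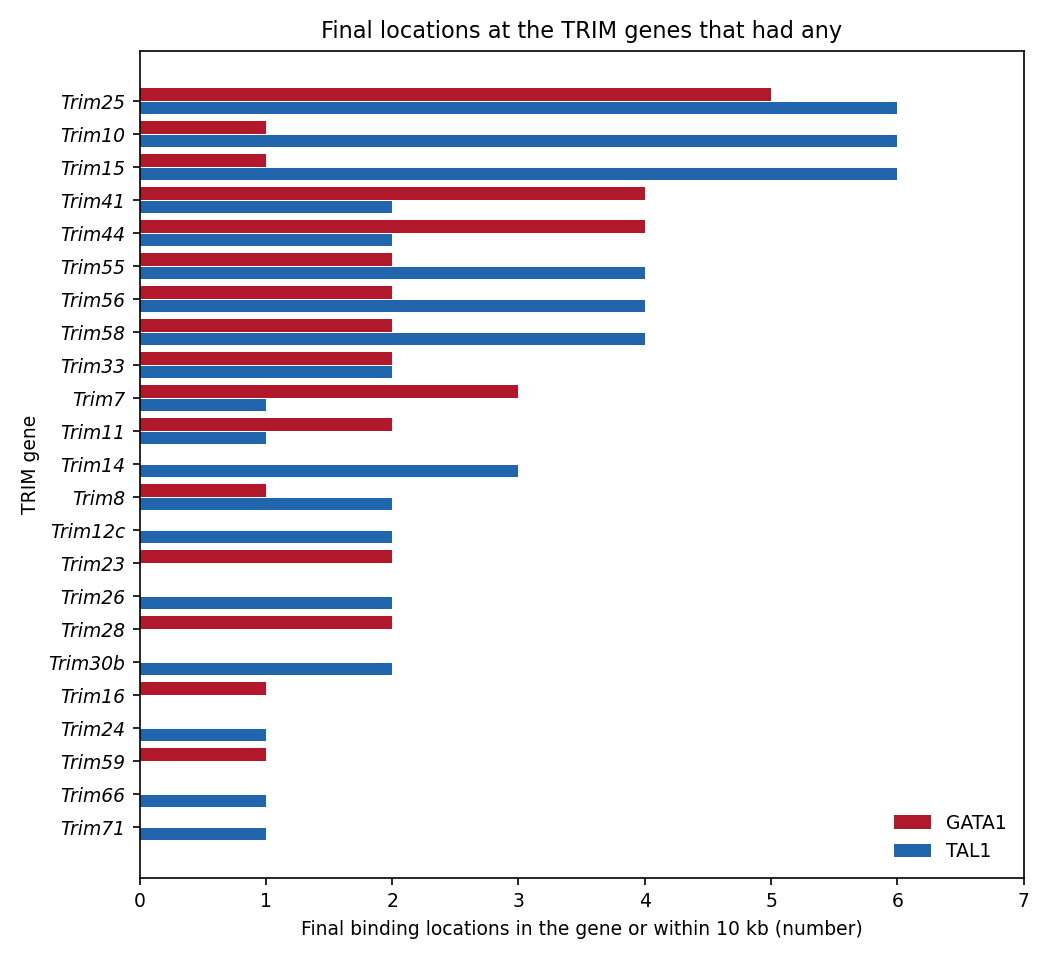
Number of final GATA1 and TAL1 locations in or within 10 kb of each TRIM gene that had any (horizontal bars, axis from 0, 1 pair of bars per gene). Trim25 had 5 GATA1 and 6 TAL1 locations, Trim10 and Trim15 shared 1 GATA1 and 6 TAL1 locations, and Trim58 had 2 GATA1 and 4 TAL1 locations.

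Trim10 (ENSMUSG00000073400.5, chr17:37006519-37014770, plus strand) was bound at its promoter. Its 1 final GATA1 location, at position 37006355 of chromosome 17, lay 164 bp upstream of the annotated start site, and the closest final TAL1 location was 27 bp from it. The 300 bases before the start site are shown because they hold this GATA1 location and 5 of the 6 TAL1 locations. The capitals mark the only WGATAA element of the stretch (AGATAA or TGATAA on either strand), here read on the opposite strand.
Trim10 promoter, chr17:37006219-37006518, plus strand: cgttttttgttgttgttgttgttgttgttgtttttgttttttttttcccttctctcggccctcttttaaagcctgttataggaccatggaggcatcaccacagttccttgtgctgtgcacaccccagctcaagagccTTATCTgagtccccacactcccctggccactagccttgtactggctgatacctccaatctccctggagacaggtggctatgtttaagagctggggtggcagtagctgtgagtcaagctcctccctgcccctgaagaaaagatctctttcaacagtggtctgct

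The 6 final TAL1 locations of Trim10 formed 1 run across the start site. They lay 253, 192, 137, 86 and 26 bp upstream of it and 53 bp downstream, in the 5' UTR, so that neighbors were 61, 55, 51, 60 and 79 bp apart. The locations 192 and 137 bp upstream flanked the GATA1 location, at 28 and 27 bp, and both had the WGATAA element within 40 bp, whereas the other 4 did not. As many as 6 TAL1 locations were listed at 3.24% of all genes, but 6 within 500 bp of a start site were listed at only 15 of 22202 genes (0.0676%). Peak pairs gave the same outline: the 5 GATA1 pairs lay from -225 to -65 bp of the start site, and the TAL1 pairs lay from -388 to 199 bp, except for 1 at 11579 bp, which was closer to Trim40. The window of 28.3 kb around Trim10 held 21 WGATAA elements, and 1 of them had a final location of either factor within 40 bp.

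**Figure D2:**
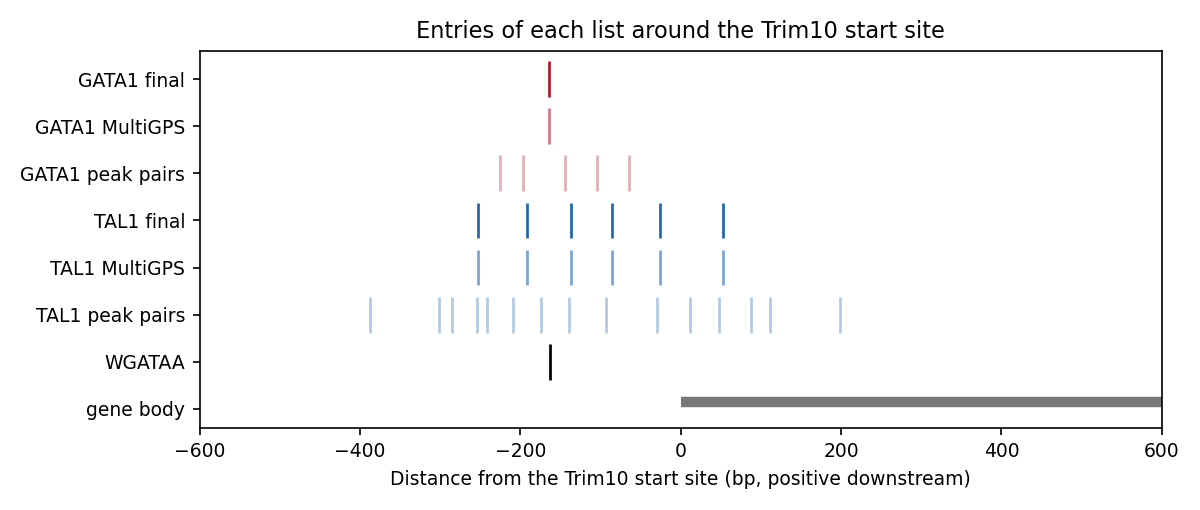
Positions of the list entries around the start site of Trim10, with distance from the start site in bp on the x axis 1 line of marks for each factor and list, and lines for WGATAA elements and the gene body (the TAL1 pair at 11579 bp lies outside the range drawn). The GATA1 marks sit between -225 and -65 bp, inside the wider run of TAL1 marks from -388 to 199 bp.

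Trim10 stands in a group of TRIM genes on chromosome 17 with Trim26, Trim15, Trim40 and Trim31, within 73.1 kb. The locations at the Trim10 promoter were the only final locations of either factor in the windows of these 5 genes, so the neighbors had no final location of their own. Trim15, which starts on the opposite strand and has a RING, B-box and SPRY protein like that of Trim10, took all of its final locations from there, with the GATA1 location 2200 bp upstream of its start site. Of its 16 TAL1 pairs, 1 lay elsewhere, in an intron of Trim26. Trim26, a ligase of antiviral signaling, reached 2 of the same TAL1 locations at 9923 and 9984 bp from the gene. The GATA1 location fell just outside its limit at 10012 bp, as did the next TAL1 location at 10039 bp.

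Trim58 (ENSMUSG00000037124.6, chr11:58453967-58465906, plus strand) was bound inside the gene, in introns, and not at its promoter. The final GATA1 locations lay 1292 and 3099 bp downstream of the start site. The final TAL1 locations lay at 825, 1278, 1340 and 1480 bp, which makes 1 run in which each was within 500 bp of the next. The first GATA1 location and the second TAL1 location were 14 bp apart, and this was the only place in the gene where both factors had a final location within 40 bp, called cooccupied here. The second GATA1 location was 1619 bp from the closest TAL1 location. At least 2 GATA1 locations were listed at 10.5% of all genes, and at least 4 TAL1 locations at 6.07%.

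The sequences around the 2 GATA1 locations of Trim58 are shown because they differ in the elements they hold. Capitals mark E-boxes (CAGCTG or CAGATG, either strand) in the first and a WGATAA element in the second, each in the 40 bases on either side of the location. The cooccupied location had no WGATAA element but contained 2 adjacent copies of CAGCTG, whereas the location bound by GATA1 alone had a WGATAA element and no E-box. The cooccupied location still held 1 GATA within 40 bp, as GGATAA on the opposite strand, which is not a WGATAA match.
Trim58 intron, cooccupied, chr11:58455219-58455299, plus strand: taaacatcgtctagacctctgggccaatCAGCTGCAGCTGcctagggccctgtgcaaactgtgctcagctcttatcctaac
Trim58 intron, GATA1 alone, chr11:58457026-58457106, plus strand: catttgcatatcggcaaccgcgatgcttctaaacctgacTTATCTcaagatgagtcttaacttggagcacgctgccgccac

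A further site of both factors at Trim58 was seen in the peak pairs. A GATA1 pair at 823 bp lay 4 bp from a TAL1 pair at 827 bp, with a WGATAA element within 40 bp, and beside the final TAL1 location at 825 bp. No GATA1 MultiGPS location was within 469 bp of that pair, so it was not in the final list. Trim58 had 4 GATA1 pairs, the others being at -5087, 1267 and 3122 bp, and 8 TAL1 pairs, all between 827 and 1592 bp. Its window of 31.9 kb held 29 WGATAA elements, of which 1 had a final GATA1 location within 40 bp and 1 a final TAL1 location.

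**Figure D3:**
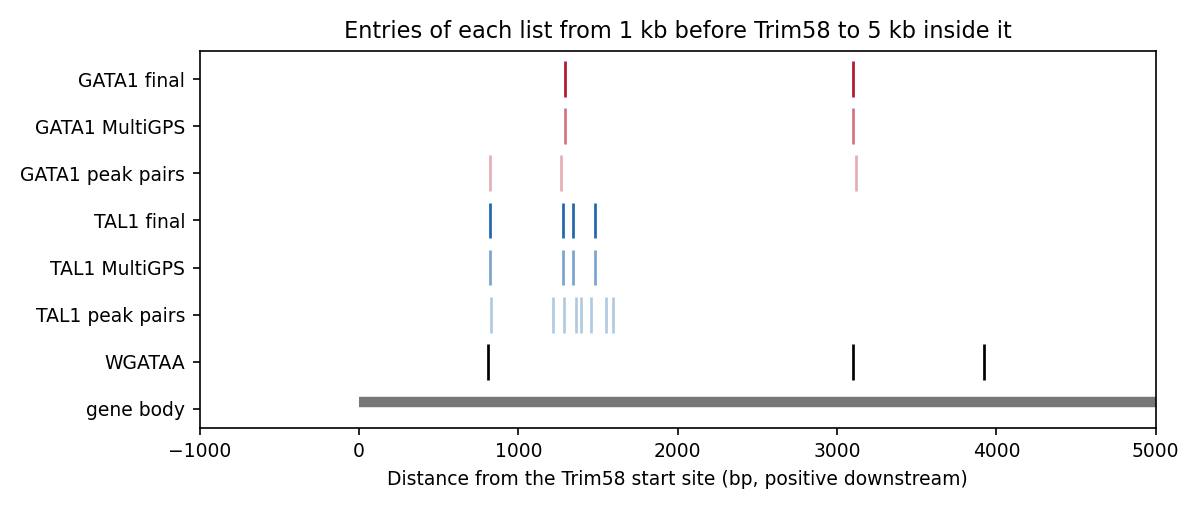
Positions of the list entries around the start site of Trim58, with distance from the start site in bp on the x axis 1 line of marks for each factor and list, and lines for WGATAA elements and the gene body (the GATA1 pair at -5087 bp lies outside the range drawn). TAL1 marks run from 825 to 1592 bp, and the second final GATA1 location, at 3099 bp, stands apart from them.

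Of the antiviral signaling members, Trim25 and Trim56 had the most entries. Trim25 is the ligase that activates the RNA sensor RIG-I, and it had 5 final GATA1 and 6 final TAL1 locations, with 17 peak pairs of each factor. As many final locations were listed at 1.52% of all genes for GATA1 and 3.24% for TAL1. None was near its start site: 1 GATA1 and 3 TAL1 locations were in the 3' UTR, between 17910 and 18213 bp from the start site, and the others lay beyond the end of the gene. There, 3 GATA1 locations at 8660, 8832 and 8962 bp from the gene formed a run, and the middle one was 4 bp from a TAL1 location.

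Trim56, a ligase of innate DNA and RNA sensing, was bound at its promoter, like Trim10. A final GATA1 location lay 355 bp upstream of the start site with 6 GATA1 peak pairs within 100 bp, and 3 of its 4 final TAL1 locations lay 196, 336 and 343 bp upstream. The fourth lay 13107 bp downstream of the start site and 2544 bp beyond the gene. The GATA1 location and the closest TAL1 location were 12 bp apart. A second GATA1 location 7011 bp from the gene had no TAL1 location within 4467 bp. The sequence around the promoter location, read along the gene, is shown with the WGATAA element in capitals.
Trim56 promoter, chr5:137592394-137592474, minus strand: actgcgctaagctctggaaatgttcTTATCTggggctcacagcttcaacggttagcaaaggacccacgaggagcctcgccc

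The antiviral TRIM genes of chromosome 7 had no final GATA1 location, and a final TAL1 location counted for 2 of the 10 genes, beside 21.3% of all genes. This group holds Trim6, Trim34a, Trim5, Trim12a, Trim34b, Trim12c, Trim30b, Trim30c, Trim30a and Trim30d, which are relatives of the retrovirus restriction factor Trim5, within 289 kb (chr7:111367307-111656363). The 10 genes together had no final GATA1 location, 1 GATA1 peak pair, 2 final TAL1 locations and 3 TAL1 pairs. Both final TAL1 locations were in an intron of Trim12c, 381 and 528 bp from its start site, and they also counted for Trim30b at 2414 and 2561 bp. The closest final GATA1 location was 442561 bp away, the TAL1 locations had no WGATAA element within 40 bp, and neither had an E-box. The 1 GATA1 pair, however, lay 525 bp from the start site of Trim12c, beside the TAL1 location at 528 bp. A TAL1 pair at 474 bp had a WGATAA element within 40 bp. Of the other antiviral members, Trim14, an adaptor of RNA sensing at mitochondria, had 3 final TAL1 locations and no final GATA1 location, all in introns, and Trim21, which binds antibodies in the cytosol, had no entry in any list.

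The 4 members with a PHD finger and bromodomain, which act in the nucleus on chromatin, all had a final location of GATA1 or TAL1, beside 29.0% of all genes, but of differing kinds. With 4 genes nothing is read from this count. Trim28, the corepressor of KRAB zinc finger proteins, had 2 final GATA1 locations and no final TAL1 location, the closest being 286990 bp from the GATA1 location 453 bp upstream of its start site. Trim24 had 1 final TAL1 location 7676 bp upstream of its start site, and Trim66 had 1 at 3908 bp upstream, neither with a GATA1 location. Trim33, a transcription cofactor needed for blood formation, had 2 of each: in an intron, where the factors were 51 bp apart, and in a coding exon 74434 bp from the start site, where they were 17 bp apart and cooccupied. The Trim28 promoter is shown as a site of GATA1 alone with 2 WGATAA elements, in capitals.
Trim28 promoter, chr7:13609008-13609088, plus strand: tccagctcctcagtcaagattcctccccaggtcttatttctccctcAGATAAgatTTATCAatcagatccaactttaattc

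Trim41 and Trim7 are adjacent SPRY members on chromosome 11. Trim41 had 4 final GATA1 locations, a number reached by 2.75% of all genes, and Trim7, a ligase that binds glycogenin, had 3, reached by 5.05%. They share the location 2819 bp upstream of Trim41, which was 8 bp from a TAL1 location. The other 3 of Trim41 were in introns at 1214 and 1802 bp, without a TAL1 location within 5147 bp, and 8903 bp beyond the gene, closer to the start of Gnb2l1. The one beyond the gene was also 8 bp from a TAL1 location. Trim7 also had a GATA1 location 33 bp downstream of an internal start site.

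The remaining members with both factors were Trim44, Trim55, Trim11 and Trim8. Trim44, which lacks a RING finger, had 4 final GATA1 locations in introns, of which 2, at 34069 and 35473 bp from the start site, were 19 and 26 bp from a TAL1 location, and 2 closer to the start site had none. Trim55, a muscle ligase of the MURF group, had 2 GATA1 locations in introns, at 6253 and 20288 bp, and each had TAL1 nearby, at 35 and 43 bp. Trim11 had 1 GATA1 location in its 3' UTR and a cooccupied one 1848 bp beyond the gene. Trim8, a ligase that acts on SOCS1, had 1 cooccupied location in an intron 2220 bp from its start site, with an E-box and no WGATAA element within 40 bp.

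At 6 of the 23 members with a final location, none of the locations had that member's start site as the closest. These were Trim15, Trim26, Trim30b, Trim16, Trim23 and Trim71. The GATA1 locations of Trim23, a ligase with an ARF domain, were in an intron of 2410002O22Rik, 1004 and 1688 bp upstream of Trim23, and that of Trim16 was in an intron of Fam18b. Trim59, by contrast, had its 1 final GATA1 location 1845 bp upstream of its own start site. Over all members, the closest start site was that of a TRIM gene for 28 of 33 GATA1 locations and 37 of 41 TAL1 locations.

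Both factors had a final location at 12 of the 67 members (17.9%, 9.61 to 29.2), beside 16.3% of all genes, and either factor at 23 (34.3%, 23.2 to 46.9), beside 29.0%. All 12 with both had at least 1 cooccupied GATA1 location, although Trim10 and Trim15 shared theirs, and Trim7 shared its own with Trim41. Over all genes, 3609 had both factors and 2461 (11.1% of all genes) had a cooccupied location. GATA1 without TAL1 was listed at 4 members, Trim16, Trim23, Trim28 and Trim59, or 5.97% beside 7.64% of all genes. At Trim59, however, a TAL1 MultiGPS location lay 51 bp from the GATA1 location, and a final TAL1 location lay 10199 bp from the gene. A TAL1 peak pair lay 8 bp from a GATA1 pair at Trim16, and 67 bp from one at Trim28, near Ube2m. Trim23 had no TAL1 entry in any list. TAL1 without GATA1 was listed at 7, Trim12c, Trim14, Trim24, Trim26, Trim30b, Trim66 and Trim71, or 10.4% (4.3 to 20.3) beside 5.07%. Trim12c and Trim30b counted the same 2 locations, and Trim26 missed the GATA1 location at Trim10, 10012 bp away. In the peak pairs, a GATA1 pair lay 0 bp from a TAL1 pair at Trim71, 14 bp at Trim14, 16 bp at Trim66 and 50 bp at Trim12c. At Trim14 that TAL1 pair was 464 bp from the closest TAL1 MultiGPS location, so it was not at a final location. The TAL1 pair of Trim24 was 3555 bp from the closest GATA1 pair. At least 2 final locations were listed at 11 members for GATA1 (16.4% beside 10.5% of all genes) and at 14 for TAL1 (20.9% beside 12.2%). With the gene body alone, without the 10 kb on either side, 9 members had a GATA1 location and 9 a TAL1 location (13.4% each), beside 14.4% and 12.9% of all genes.

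By C-terminal domain class, only the SPRY class is large. Of its 36 members, 10 had a final location of either factor, beside 29.0% of all genes, and 16 had no entry in any list. The other classes hold at most 6 members each, and their counts are listed as descriptions. Both C-V members with a final location, Trim56 and Trim8, had both factors. No member of the COS box and fibronectin class that holds Trim36, Trim46, Trim67 and Trim9, several of which are neuronal, had a final location, and of the 4 NHL repeat members only Trim71 had one, closer to Ccr4. The muscle ligases Trim63 and Trim54, the closest relatives of Trim55, had no entry.

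The 33 GATA1 and 41 TAL1 final locations in the windows of TRIM genes were next described one by one. Of the GATA1 locations, 12 (36.4%, 20.4 to 54.9) were cooccupied, beside 35.9% of all 10290 GATA1 locations. Of the TAL1 locations, 15 (36.6%, 22.1 to 53.1) were cooccupied, beside 27.5% of all 15209. A TAL1 location lay within 1 kb of a start site for 12 of 41 (29.3%, 16.1 to 45.5), beside 7.46% of all, and Trim10 alone gave 6 of the 12. For GATA1 it was 6 of 33 (18.2%, 6.98 to 35.5), beside 10.4%. These shares over all locations include those more than 10 kb from any gene. Only 8043 of the 10290 GATA1 and 11402 of the 15209 TAL1 locations lay in gene windows. The bases thus differ in a way that lowers the shares over all. Within 500 bp of their own start site, GATA1 was listed at Trim10, Trim28, Trim56 and Trim7 (5.97% of members, beside 2.57% of all genes) and TAL1 at Trim10, Trim12c and Trim56 (4.48%, beside 1.57%).

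**Figure D4:**
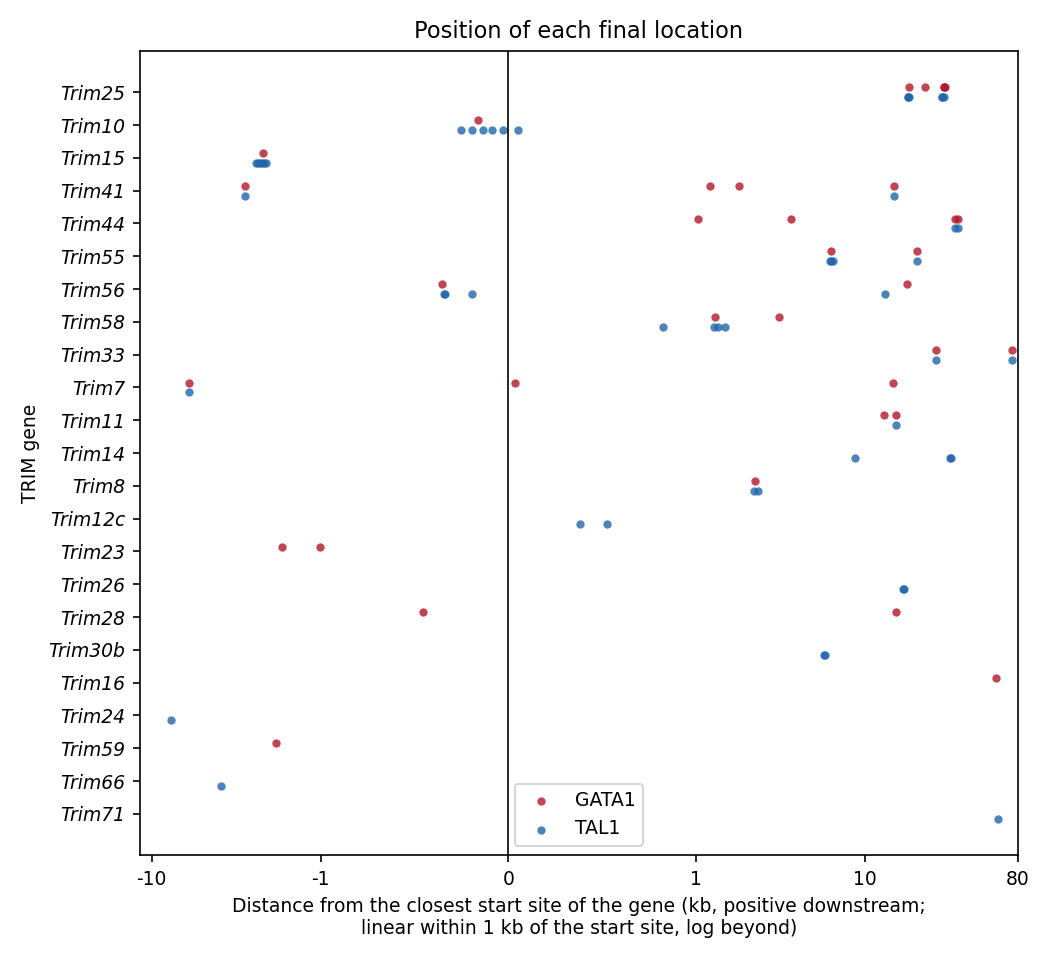
Distance in kb of each final location from the closest start site of its TRIM gene, with genes as lines, factors as colors and negative values upstream, on an x axis that is linear within 1 kb of the start site and logarithmic beyond. Trim10, Trim56, Trim28, Trim7 and Trim12c have marks within 500 bp of the start site, and those of Trim25, Trim33 and Trim44 reach beyond 10 kb.

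An element WGATAA lay within 40 bp of 24 of the 33 GATA1 locations (72.7%, 54.5 to 86.7), beside 66.5% of all GATA1 locations and 8.29% of positions moved by 1 kb. For TAL1 it was 14 of 41 (34.1%, 20.1 to 50.6), beside 45.9% of all TAL1 locations. An E-box lay within 40 bp of 3 GATA1 locations (9.09%, 1.92 to 24.3) and 9 TAL1 locations (22.0%), beside 17.2% and 21.7%. The RefSeq promoters, short stretches around each start on GRCm38.p6, covered 52 of the 67 members, and AGATAA or TGATAA was found on either strand in 6 of their 66 promoters (9.09%), those of Trim10, Trim2, Trim34b, Trim39, Trim40 and Trim72, and in 18.6% of all 32851. Those are letters in a window and were not set against the location lists, which use another build.

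A TG 7 or 8 bases before the WGATAA element, on the same strand, is the composite element through which TAL1 and GATA1 can bind together. It was found within 40 bp of 12 of the 33 GATA1 locations (36.4%, 20.4 to 54.9), beside 20.4% of all GATA1 locations. The lower end of the interval is about the share over all. Among the members' cooccupied GATA1 locations, 8 of 12 (66.7%) had it, and among the others 4 of 21 (19.0%), where over all GATA1 locations it was 34.0% of 3697 and 12.8% of 6593. The composite elements of 7 cooccupied locations outside exons are shown first, on the strand of the motif with TG and WGATAA in capitals, and then that of the Trim28 promoter, where GATA1 was listed without TAL1.
Trim10, promoter, chr17:37006348-37006378, minus strand: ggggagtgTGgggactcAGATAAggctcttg
Trim56, promoter, chr5:137592426-137592457, plus strand: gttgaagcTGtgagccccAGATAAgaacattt
Trim41, upstream, chr11:48633689-48633719, minus strand: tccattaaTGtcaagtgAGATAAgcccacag
Trim11, downstream, chr11:58806791-58806822, minus strand: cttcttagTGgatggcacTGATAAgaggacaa
Trim44, intron, chr2:102204929-102204960, plus strand: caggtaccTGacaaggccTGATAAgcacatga
Trim44, intron, chr2:102206324-102206355, plus strand: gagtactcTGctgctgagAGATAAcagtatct
Trim55, intron, chr3:19550708-19550739, plus strand: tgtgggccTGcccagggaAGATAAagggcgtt
Trim28, promoter, GATA1 alone, chr7:13609055-13609086, minus strand: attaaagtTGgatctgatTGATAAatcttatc

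Apart from TG and WGATAA, these elements shared little sequence, and in none of them was the TG the end of a full E-box (CANNTG). The gap between TG and WGATAA was 7 bases at Trim10 and Trim41 and 8 bases at the others. At 9 cooccupied member locations with a single WGATAA element, TAL1 lay upstream of GATA1 on the motif strand at 6, with a median offset of -12 bp, beside 55.5% of 1990 such locations in all with a median of -4 bp. Trim10 had the widest offset in that direction, -27 bp, followed by Trim44 with -26 and -19 bp, Trim33 with -17 bp, Trim56 with -12 bp and Trim11 with -8 bp. TAL1 lay on the other side at Trim25 (4 bp), Trim41 (8 bp) and Trim55 (35 bp). These offsets are to the closest TAL1 location, and at Trim10 and Trim55 a second one lay on the opposite side of GATA1 and only 1 bp farther from it, at 28 and 36 bp, so no direction is read at those members.

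Inside introns lay 15 of the members' GATA1 locations (45.5%) and 18 of their TAL1 locations (43.9%), beside 56.1% and 53.6% of all locations. Exons held 4 GATA1 locations (12.1%, 3.4 to 28.2) and 5 TAL1 locations (12.2%), beside 4.05% and 3.95%. Here too the shares over all locations include those more than 10 kb from any gene, which lowers the exon and intron shares. The exonic GATA1 locations were those in the 3' UTR of Trim25 and Trim11, the 5' UTR of Trim7 and the coding exon of Trim33. The exonic TAL1 locations were 3 at Trim25, 1 at Trim33 and the one in the 5' UTR of Trim10. Runs of locations of the same factor within 500 bp held 3 of 33 GATA1 locations (9.09%), all at Trim25, and 27 of 41 TAL1 locations (65.9%), beside 13.7% and 64.4% of all locations.

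The MultiGPS lists added 1 member to the 23 with a final location, and the peak pair lists added 19 more. A MultiGPS location was listed at 17 members for GATA1 (25.4%, beside 27.5% of all genes) and 21 for TAL1 (31.3%, beside 24.8%), and only Trim65 had a MultiGPS location, of TAL1, without a final location of either factor. A peak pair was listed at 31 members for GATA1 (46.3%, 34.0 to 58.9, beside 48.4%) and 39 for TAL1 (58.2%, 45.5 to 70.2, beside 50.1%). Any entry in any of the 6 lists was found at 43 members (64.2%), beside 63.9% of all genes. In the members' windows, 64 of 118 GATA1 pairs (54.2%) and 78 of 147 TAL1 pairs (53.1%) had a MultiGPS location of their factor within 100 bp, beside 46.1% and 50.1% of all pairs. A WGATAA element lay within 40 bp of 56 of these GATA1 pairs (47.5%) and 27 of these TAL1 pairs (18.4%).

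Peak pairs without any MultiGPS location were the only entries at 19 members (28.4%), beside 30.7% of all genes. Trim37, a ligase of the centrosome, had the most, with 1 GATA1 and 3 TAL1 pairs. Trim2 and Trim47 had 2 GATA1 pairs and 1 TAL1 pair each, Trim9 had 1 and 2, Trim46 had 1 of each and Trim67 had 2 of TAL1. The other 13, which had a single pair, were Trim13, Trim17, Trim27, Trim29, Trim30c, Trim39, Trim40, Trim45, Trim50, Trim60, Trim61, Trim69 and Trim72. Of the 19, 8 had a GATA1 pair and 16 a TAL1 pair. No entry of either factor was found at 24 members. Of the chromosome 7 group these were Trim12a, Trim30a, Trim30d, Trim34a, Trim34b, Trim5 and Trim6. The others were Trim3, Trim21, Trim31, Trim32, Trim35, Trim36, Trim38, Trim42, Trim43a, Trim43b, Trim43c, Trim52, Trim54, Trim62, Trim63, Trim68 and Trim75. The authors kept uniquely mapped reads only, and what this removed at near-identical copies, such as those of Trim43, was not tested.

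Gene length moved with the share of genes bound, and a longer gene has a wider window. With all genes split by length into 5 classes of near-equal size, a GATA1 location was listed at 9.59% of the shortest and 36.8% of the longest class, and a TAL1 location at 8.35% and 35.9%. The TRIM genes had a median length of 15280 bp, against 15526.5 bp for all genes, and only 1 was in the shortest class. At the rate of its own class, each member taken once, 17.1 members would have a GATA1 location, where 16 had one, and 15.1 a TAL1 location, where 19 had one. By class from shortest to longest, TAL1 locations were listed at 0 of 1, 2 of 17, 9 of 26, 4 of 13 and 4 of 10 members, beside 8.35, 15.4, 20.9, 26.0 and 35.9% of all genes.

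**Figure D5:**
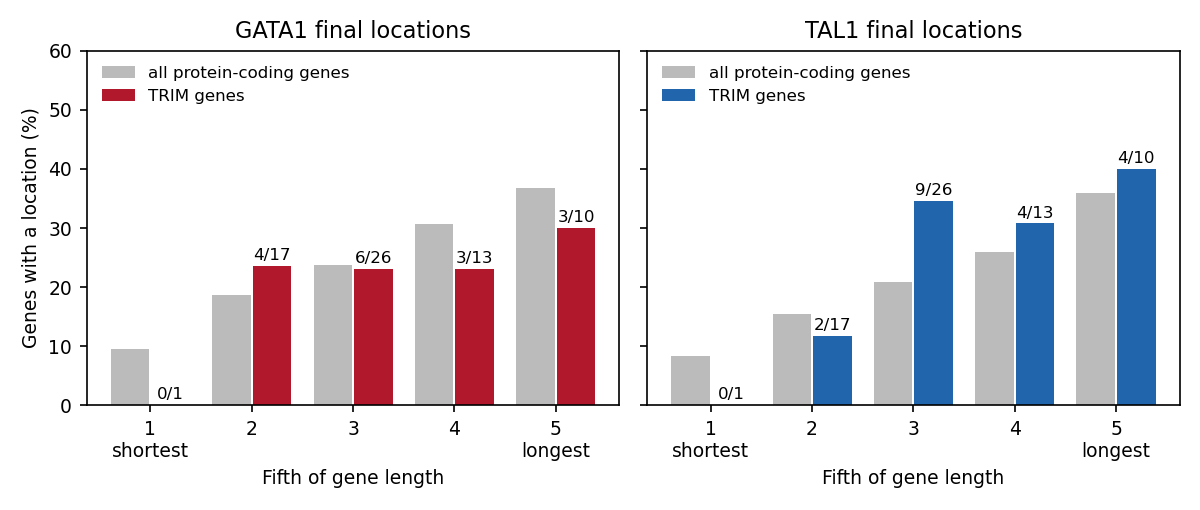
Percent of genes with a final location in or within 10 kb, by class of gene length (5 classes of near-equal size), for all genes and for TRIM genes, with 1 panel for each factor and an axis that starts at 0. The share of all genes rises from the shortest to the longest class, from 9.59 to 36.8% for GATA1 and from 8.35 to 35.9% for TAL1.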

How the data were processed

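GATA1 and TAL1 ChIP-exo libraries of G1E and G1E-ER4 cells were grouped by factor, since the deposited lists do not separate the times. By the study's methods and the submitters' processing notes, the authors aligned reads to mm9 with Bowtie 1.00 or BWA 0.6.2 and 0.7.9a, kept uniquely mapped reads, merged replicates, removed blacklisted regions, paired opposite-strand peaks, and ran MultiGPS. The values in the 6 deposited lists are single-base mm9 positions with no score, count or sample. By the text of the study the GATA1 lists rest on G1E-ER4 cells, whereas the labels also link the G1E library, and its methods give a higher estradiol concentration than the labels.

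For this report, entries were counted per gene of GENCODE vM1 (the longest entry of a symbol) within 10 kb, and read with Python 3.11.15, pandas 2.3.3 and scipy 1.17.1 (exact binomial intervals, 95%). Cooccupied meant a final location of the other factor under 40 bp away, a run meant locations of a factor within 500 bp, and motifs were exact matches within 40 bp in the mm9 genome. Every member with a final location, the members with peak pairs alone and those with no entry are named. Domain classes are textbook groupings by C-terminal domain. The members and lists were chosen with earlier results of these data known. The counting code was checked on simulated lists. Alternatives changed the window, the closest-gene rule, the cooccupancy distance, the motif and the merging of pairs. Libraries behind the lists were not analysed here one by one.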

Additional observations from a re-analysis of the deposited data

How the results depend on the processing

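The number of members bound depended on the window. Without flanks, 9 members had a GATA1 and 9 a TAL1 location, with 50 kb 34 and 38, and with 2 kb TAL1 fell to 11 (GATA1 14). Over all genes the 50 kb shares were 42.7% for GATA1 and 40.3% for TAL1, and the members' 50.7% and 56.7%. With 2 kb the shares over all genes were 17.4% for GATA1 and 15.2% for TAL1, and the members' 20.9% and 16.4%. The closest start site rule gave 16 and 16. That rule sets no distance limit, so the members differ. For GATA1 it leaves out Trim15, Trim16 and Trim23, and it counts Trim2, whose closest GATA1 location was 45051 bp from the gene. Its share over all genes was not counted. The share of GATA1 locations with WGATAA was 51.5% within 20 bp and 93.9% with GATA on either strand, and that of TAL1 locations 9.76% and 53.7%. The cooccupied share of TAL1 locations was 22.0% under 20 bp and 53.7% under 100 bp, and that of GATA1 24.2% and 45.5%. The motif and cooccupied shares at these other settings were not counted over all locations or moved positions. They therefore have no background beside them. Merging pairs within 40 bp left 107 of 129 GATA1 and 140 of 180 TAL1 pairs, summed over genes, so that a pair shared by several members counts at each. No paired analysis was possible because the lists hold no replicate. For the same reason no library could be left out, and depth limits are unknown.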

Other observations

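Genes related to the TRIM family by protein or by substrate gave these values. Of 4 TRIM family proteins with other symbols, Pml, which forms nuclear bodies, had 3 final GATA1 and 6 final TAL1 locations in or within 10 kb, with 2 of the GATA1 locations cooccupied, whereas Mid1, Mid2 and Mefv had no entry in any list. Of 15 genes of cytoplasmic dynein and its partners, the motor that Trim58 acts on, 5 had a GATA1 and 5 a TAL1 location, beside 23.9% and 21.3% of all genes, and 3 had both: Dync1i2 and Dync1li1 with 2 GATA1 and 1 TAL1 locations each, and Ndel1 with 1 and 2. Of 13 genes of cytoplasmic RNA sensing and interferon induction, 3 had a GATA1 and 5 a TAL1 location, beside the same shares of all genes. The 3 with both were Ifih1 with 1 of each, Tbk1 with 2 GATA1 and 4 TAL1, and Ifnar2 with 3 GATA1 and 2 TAL1 locations.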
